A study of Mus musculus with 10 samples.

Results

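Glycolysis and the hypoxia response were followed here through 35 genes chosen by name, all present in the deposited table of 50763 genes. They comprise the glucose transporter Slc2a1, the enzymes and isozymes from hexokinase to lactate dehydrogenase, the pyruvate dehydrogenase kinases, the lactate carriers, and genes that sense oxygen or rise when it is scarce. RNA of lens epithelial explants from mice aged 3 weeks was sequenced in 10 pooled libraries, 3 from wild-type (WT) mice, 3 from the transgenic line OVE853 and 4 from OVE918. Each WT or OVE853 pool held tissue of up to 9 mice and each OVE918 pool of up to 7. Every mouse was of the FVB/N background and both sexes were mixed. Both lines were kept homozygous and carry a human TGF-β1, made constitutively active and secreted, under the αA-crystallin promoter, which is lens-specific, whereas the WT mice carry no transgene. The explanted epithelium was used whole, so that anterior subcapsular plaque and surrounding epithelium are not separated in these data. Against WT, Car9 was elevated 15.1-fold in OVE853 and 10.4-fold in OVE918, the oxygen sensors Egln1 and Egln3, the mitophagy receptor Bnip3, the kinase Pdk1 and the glycolytic enzyme Pgam1 were elevated by smaller amounts in both lines, and Ldhb, Aldoc and Slc16a1 were reduced in both. Of the 33 members tested, 9 passed a false discovery rate of 0.05 in both lines, beside 10.1% of all 11094 genes tested. In OVE918 the changes of Egln3, Pdk1 and Aldoc passed in only 2, 3 and 5 of 10 fits that each left out 1 library. In OVE853 those of Bnip3, Pdk1 and Pgam1 passed in 8 of the 10 fits and that of Slc16a1 in 7.

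Glycolysis splits glucose into pyruvate, which is either reduced to lactate and exported or burned in mitochondria. The lens has no blood vessels and lives at low oxygen, and its cells draw much of their ATP from glycolysis. The hypoxia-inducible factors (HIF) are transcription factors whose α subunits are hydroxylated by the prolyl hydroxylases Egln1 and Egln3 and degraded while oxygen is present. When oxygen is scarce the α subunits persist and bind the hypoxia response element, a short DNA motif near genes such as Car9, Pdk1 and those of the glycolytic enzymes.

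Promoter sequences are shown for 5 of the members that were elevated in both lines, since they let the motif be seen beside the values. Each is the 200 bases before the start given in the RefSeq promoter table, read 5′ to 3′ and placed on GRCm39 by its single exact match, and capitals mark the motif core ACGTG or GCGTG on either strand (CACGT and CACGC are the reverse complements, and CACGTG holds ACGTG on both strands). The 5′-most start was taken where several are listed.
Car9, chr4:43506826-43507025, plus strand: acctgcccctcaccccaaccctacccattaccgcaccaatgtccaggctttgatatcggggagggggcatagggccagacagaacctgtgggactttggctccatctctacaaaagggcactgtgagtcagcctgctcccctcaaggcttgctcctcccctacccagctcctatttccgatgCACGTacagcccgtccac
Bnip3, chr7:138511236-138511435, minus strand: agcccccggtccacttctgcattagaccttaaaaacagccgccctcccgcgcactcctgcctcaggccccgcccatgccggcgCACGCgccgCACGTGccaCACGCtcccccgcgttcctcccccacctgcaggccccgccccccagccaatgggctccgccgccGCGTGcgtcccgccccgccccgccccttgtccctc
Egln3, chr12:54250661-54250860, minus strand: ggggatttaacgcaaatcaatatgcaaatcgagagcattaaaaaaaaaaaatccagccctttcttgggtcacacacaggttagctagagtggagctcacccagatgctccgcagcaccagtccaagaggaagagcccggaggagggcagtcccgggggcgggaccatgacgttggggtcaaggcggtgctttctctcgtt
Pdk1, chr2:71703368-71703567, plus strand: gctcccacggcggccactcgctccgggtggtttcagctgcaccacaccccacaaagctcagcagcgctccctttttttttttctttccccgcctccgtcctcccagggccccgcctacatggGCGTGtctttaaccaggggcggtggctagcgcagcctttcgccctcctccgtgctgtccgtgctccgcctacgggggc
Pgam1, chr19:41900110-41900309, plus strand: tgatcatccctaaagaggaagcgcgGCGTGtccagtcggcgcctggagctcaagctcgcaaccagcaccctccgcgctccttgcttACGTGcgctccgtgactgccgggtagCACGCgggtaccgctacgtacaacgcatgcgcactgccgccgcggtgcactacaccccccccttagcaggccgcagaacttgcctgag
The Car9 window held 1 match, 18 to 14 bases before the start, the Bnip3 window 5, the Pdk1 window 1, the Pgam1 window 3 and the Egln3 window 0. The GENCODE annotation starts Car9 60, Pdk1 80, Bnip3 18 and Egln3 13 bases upstream of the 3′ end of these windows, so that their last bases may be transcribed. The only match of Car9 and the only match of Pdk1, 78 to 74 bases before the start, lie in that stretch. Of the 35 members, 32 were in the table, with 46 windows, and 28 of them (87.5%) had a match in at least 1 window. The share was 58.0% of the 7929 tested genes in the table, and by window 71.7% for the members against 34.1% of all 32851 windows and 51.5% of those of tested genes. Presence of the motif is a description of these letters and no measure of binding.

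Total counts were 24073311 to 28645174 in WT, 27409730 to 31908525 in OVE853 and 25342220 to 28562553 in OVE918. Reads assigned to Tgfb1, which include those of the human transgene that align to the mouse gene, averaged 54.3 ± 6.41 CPM (counts scaled to a common library size; SD, n = 3) in WT, 349.5 ± 11.3 in OVE853 (n = 3) and 775 ± 78.0 in OVE918 (n = 4). All 7 lens epithelium markers were detected in every library, with summed levels of 153647 to 158788 CPM in WT, 103708 to 118223 CPM in OVE853 and 128094 to 195494 CPM in OVE918. This list holds the crystallin genes Cryaa and Cryab, so that the sum does not measure epithelium alone. It also holds Cdh1 and Gja1, which the study reported as reduced with TGF-β1 overexpression. WT replicate 3 stood apart: its 8 retinal neuron markers summed to 689 CPM, against 60.8 and 79.1 CPM in the other WT libraries, 10.7 to 41.4 CPM in OVE853 and 18.4 to 107 CPM in OVE918. Its 6 endothelial markers summed to 115 CPM, against 16.2 to 29.2 CPM in the other 9 libraries, and its 6 Müller glia markers (5304 CPM) and 5 cornea markers (1619 CPM) had the highest sums of all libraries, while its 8 fiber cell markers had the lowest sum, 5571 CPM, of all libraries. The 7 macrophage markers summed to 12.2 to 31.6 CPM in WT, 32.8 to 50.4 CPM in OVE853 and 23.1 to 59.2 CPM in OVE918. The 8 fiber cell markers summed to 13778, 9161 and 5571 CPM in WT, 10654 to 14312 CPM in OVE853 and 12782 to 14769 CPM in OVE918. The part of macrophages and of fiber cells in the rises below was not tested. Results in which WT replicate 3 decided a call, and several others in which it stood apart, are also given without it. In bulk tissue, a lower level of a gene's RNA per cell and fewer cells of the type that makes it cannot be told apart.

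Of the 35 members, 33 reached 2 FPKM (read pairs per depth and exon length) in at least 5 of the 10 libraries and were tested. Epas1 and Adm did not. FDR below is the Benjamini-Hochberg adjusted p over all 11094 genes tested, from edgeR's quasi-likelihood test, and a member was called with an FDR of at most 0.05 and at least a 2-fold change. In OVE853, 1 member was called higher (Car9) and 1 lower (Ldhb), where 4.43% of all genes tested were called, 2.51% higher and 1.91% lower. At an FDR of 0.05 without the fold minimum, 6 members were elevated and 3 were reduced, with 15.8% of all genes passing, of which 8.10% were higher and 7.68% lower. In OVE918, 2 members were called higher (Car9, Bnip3) and 1 lower (Ldhb), with 5.59% of all genes called, 2.58% higher and 3.01% lower. By FDR alone, 8 were elevated and 5 were reduced, with 19.0% of all genes passing, 8.00% higher and 11.0% lower. The number of members called was near what the background share gives for 33 genes, and most members changed by less than 2-fold.

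The median log2 fold change of the 33 members was 0.25 in OVE853 and 0.17 in OVE918, beside −0.01 and 0.01 over all genes tested. Libraries of OVE853 lay wholly above WT for 14 members and wholly below for 8, where 23.4% and 22.0% of all genes did so. Libraries of OVE918 lay wholly above WT for 9 members and wholly below for 6, beside 12.3% and 15.0% of all genes. Both lines were set against the same 3 WT libraries, so the values of the lines are not independent of each other.

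**Figure D1:**
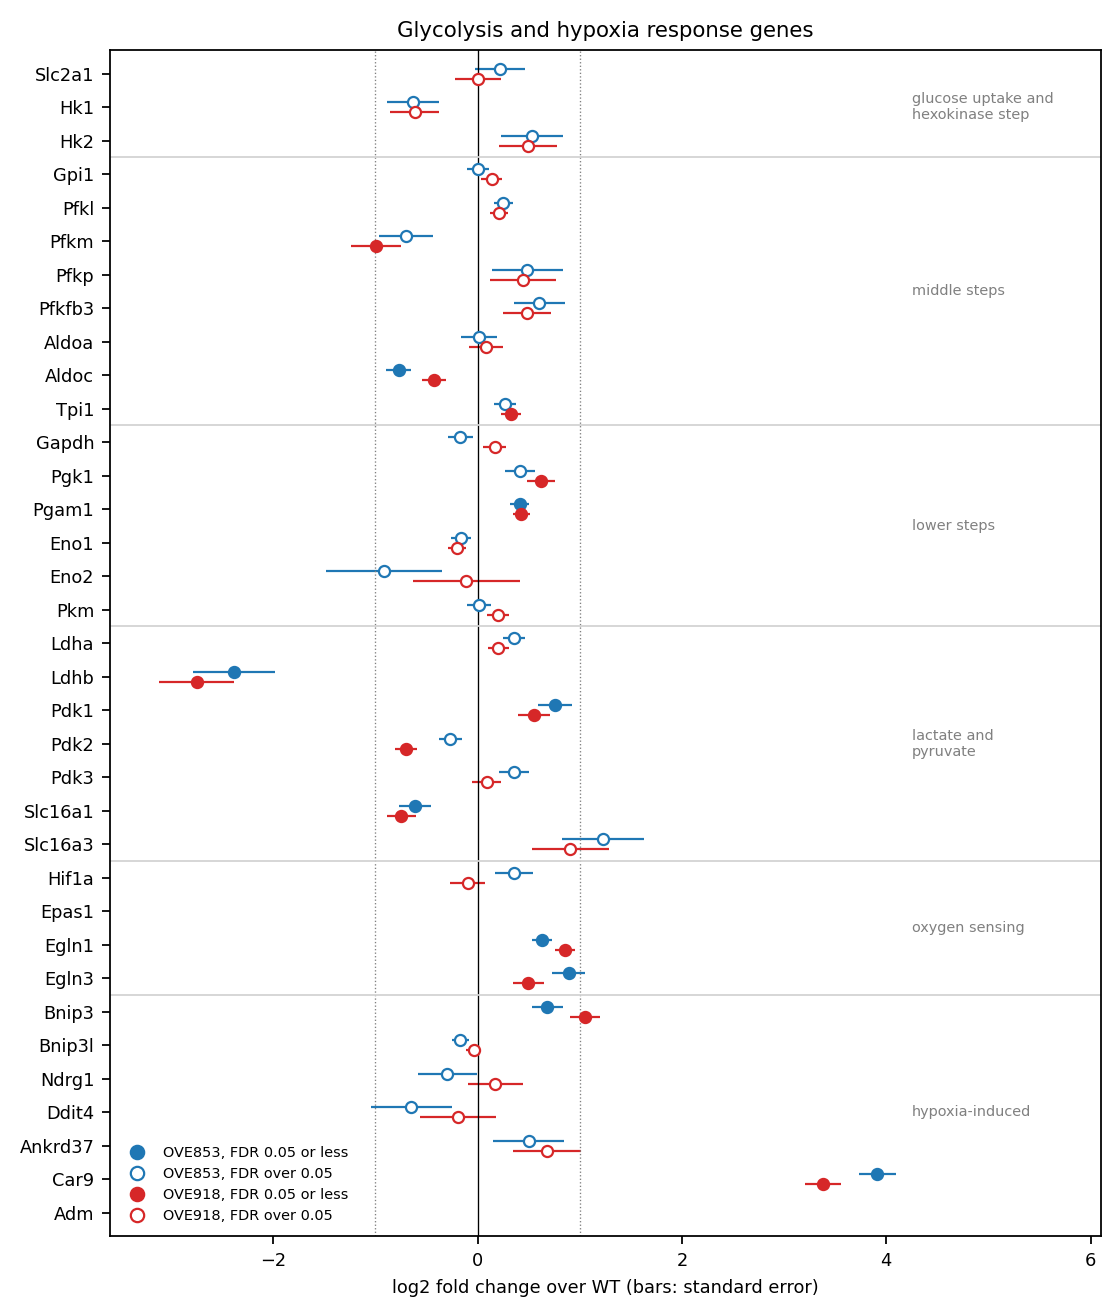
Log2 fold change over WT of every member, in OVE853 (blue) and OVE918 (red), with bars of 1 standard error and filled points at an FDR of at most 0.05. Car9 stands at 3.91 and 3.38 and Ldhb at −2.38 and −2.75, while most other members lie between the dotted lines of a 2-fold change; Epas1 and Adm were not tested.

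Among the oxygen sensing members, Egln1, the main prolyl hydroxylase that marks HIF α subunits for degradation and itself a HIF target, was elevated in both lines. Its level was 116, 96.8 and 94.3 CPM in the WT libraries, 165, 161 and 150.0 CPM in OVE853 and 174, 179.9, 192 and 194 CPM in OVE918. All transgenic libraries lay above all WT libraries, and every OVE918 library lay above every OVE853 library. The changes were small and precise, 1.55-fold in OVE853 (log2 fold change 0.63 ± 0.10, FDR 0.0022) and 1.81-fold in OVE918 (log2 fold change 0.86 ± 0.09, FDR 0.000133).

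Egln3, a prolyl hydroxylase that is strongly induced by hypoxia in many cells, measured 26.5, 20.6 and 15.8 CPM in WT, 40.2, 38.6 and 37.9 CPM in OVE853 and 26.1, 29.3, 30.9 and 32.0 CPM in OVE918. The OVE853 libraries were narrowly grouped above WT, whereas the lowest OVE918 library lay just under the highest WT library. The rise was 1.86-fold in OVE853 (log2 fold change 0.89 ± 0.16, FDR 0.00478). In OVE918 it was 1.41-fold and close to the threshold (log2 fold change 0.50 ± 0.15, FDR 0.042), and it passed in only 2 of the 10 fits that left out 1 library, with an FDR of up to 0.112 (without WT replicate 2). Without WT replicate 3 the log2 fold change was 0.33 (FDR 0.106).

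Hif1a, which encodes the α subunit HIF-1α that these enzymes act on, did not pass in either line. It measured 735, 669 and 512 CPM in WT, 759, 809 and 883 CPM in OVE853 and 544, 764, 616 and 464 CPM in OVE918. OVE853 libraries lay above the WT libraries and OVE918 libraries spread across them (log2 fold change 0.35 ± 0.18, FDR 0.2 in OVE853; log2 fold change −0.10 ± 0.17, FDR 0.737 in OVE918). Epas1, which encodes the α subunit HIF-2α, was low throughout, at 9.17, 9.93 and 29.2 CPM in WT, 8.34, 5.34 and 7.25 CPM in OVE853 and 5.95, 4.47, 7.02 and 5.63 CPM in OVE918. Its highest value by far was in WT replicate 3, the library with high retinal neuron, endothelial, cornea and Müller glia markers, whose part in this level was not tested. With a looser filter that kept 18058 genes, edgeR's adjusted p for Epas1 was 0.0732 in OVE853 (log2 fold change −1.19) and 0.0233 in OVE918 (log2 fold change −1.45). With this filter and without WT replicate 3, which was 3.06 times the mean of the other WT libraries, the values were smaller, at log2 fold change −0.49 (FDR 0.208) in OVE853 and log2 fold change −0.73 (FDR 0.0404) in OVE918, under the 2-fold limit.

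Of the 7 hypoxia-induced members, Car9 and Bnip3 were elevated in both lines, 4 passed in neither and Adm was not tested. Car9, the cell-surface carbonic anhydrase IX that hydrates carbon dioxide outside the cell, showed the largest change of all members. It rose from 5.68, 6.35 and 4.38 CPM in the WT libraries to 92.2, 73.6 and 81.2 CPM in OVE853 and 59.5, 47.6, 68.7 and 51.9 CPM in OVE918. The lowest transgenic library was several times the highest WT library, and each OVE853 library lay above each OVE918 library. Per length, its mean moved from 2.70 ± 0.494 FPKM (SD, n = 3) in WT to 40.7 ± 4.61 FPKM in OVE853 and 28.1 ± 4.57 FPKM in OVE918. By edgeR the log2 fold changes were 3.91 ± 0.18 in OVE853 (FDR 7.08e-07) and 3.38 ± 0.17 in OVE918 (FDR 1.15e-06), and they stayed between 3.24 and 4.03 whichever library was left out.

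Bnip3, an outer mitochondrial membrane protein that recruits mitochondria for mitophagy, measured 63.6, 45.0 and 60.4 CPM in WT, 92.8, 97.9 and 80.4 CPM in OVE853 and 102, 107, 119.9 and 139 CPM in OVE918. The 3 groups did not overlap, with WT lowest and OVE918 highest. The rise was 1.60-fold in OVE853 (log2 fold change 0.68 ± 0.15, FDR 0.0143) and 2.07-fold in OVE918 (log2 fold change 1.05 ± 0.15, FDR 0.000605). The 2-fold limit was only just met in OVE918: without WT replicate 2 the log2 fold change was 0.91 and without OVE918 replicate 4 it was 0.96, with FDRs of 0.00255 and 0.00118. In OVE853 the FDR was 0.058 without OVE853 replicate 1 and also without OVE853 replicate 2. Bnip3l, the related mitophagy receptor, held 379 ± 7.05 CPM in WT, 336 ± 12.8 CPM in OVE853 and 368 ± 7.94 CPM in OVE918 and did not pass (log2 fold change −0.17 ± 0.08, FDR 0.169; log2 fold change −0.04 ± 0.08, FDR 0.764).

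The other hypoxia-induced members varied widely within groups. Ndrg1, a stress-responsive gene, ranged from 181 to 316 CPM in WT and from 140.5 to 316 CPM in the transgenic lines. Ddit4, an inhibitor of the growth kinase complex mTORC1, ranged from 48.2 to 105 CPM in WT and from 35.6 to 92.6 CPM in the transgenic libraries. Ankrd37, a small HIF target, lay between 2.50 and 5.01 CPM in WT and between 3.30 and 7.94 CPM in the lines, and Adm, which encodes the vasodilator peptide adrenomedullin, had only 1 to 27 counts in a library. Groups overlapped for Ndrg1, Ddit4 and Ankrd37, and their FDR was 0.177 or more in each line. For Ankrd37, WT replicate 3 was the highest WT library and 1.89 times the mean of the others. Without that library the log2 fold change of Ankrd37 was 0.88 ± 0.35 (FDR 0.15) in OVE853 and 1.06 ± 0.34 (FDR 0.0631) in OVE918. Adm had 3, 1 and 14 counts in WT, 14, 4 and 10 in OVE853 and 15, 11, 27 and 19 in OVE918, with WT replicate 3 the highest WT library. With the looser filter its log2 fold change in OVE918 was 1.70 (edgeR, FDR 0.105), and also leaving out WT replicate 3 it was 3.06 (FDR 0.0167), against WT libraries of 3 counts or fewer, so that the size of this value is not reliable.

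**Figure D2:**
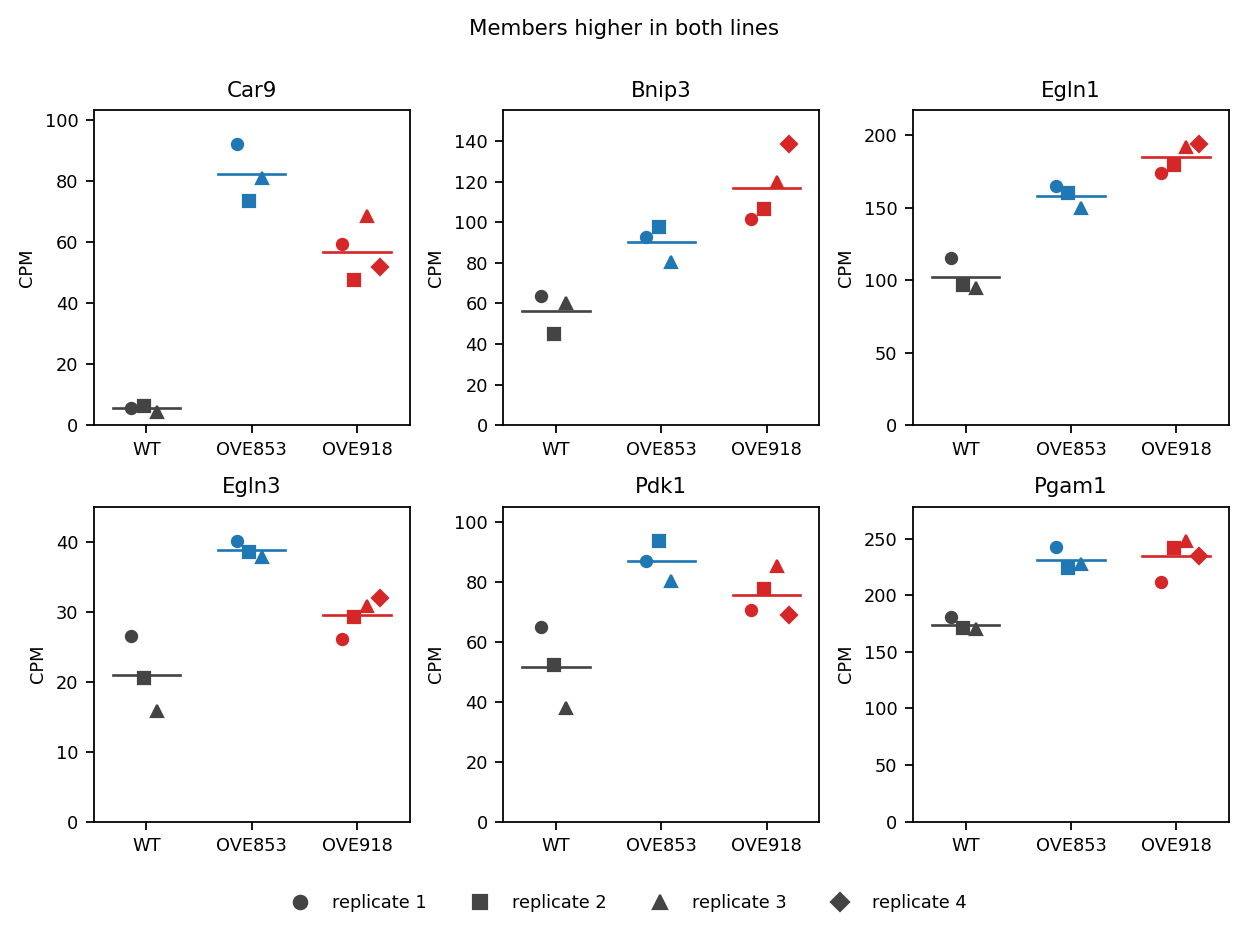
CPM (linear axes from 0) of 6 members that passed an FDR of 0.05 above WT in each line, 1 point per library with the marker shape giving the replicate number and a horizontal line at the group mean. OVE853 and OVE918 libraries lie above all WT libraries in every panel except Egln3, where OVE918 replicate 1, at 26.1 CPM, is just under WT replicate 1 at 26.5 CPM.

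Along glycolysis itself most members did not pass. The 17 members that encode enzymes from hexokinase to lactate dehydrogenase took 1.01 ± 0.0538% (SD, n = 3) of all counts in WT, 1.00 ± 0.0487% (n = 3) in OVE853 and 0.989 ± 0.0461% (n = 4) in OVE918, with all groups overlapping. Per length, Gapdh had the highest mean in WT at 1531 ± 136 FPKM, followed by Aldoc at 708 ± 101, Eno1 at 594 ± 38.3, Pkm at 568 ± 53.6 and Ldha at 369 ± 32.5 FPKM. Aldoc lay above Eno1 in each WT library, whereas Pkm lay above both in WT replicate 1 and below both in the other WT libraries. Their order was not tested.

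The entry of glucose into the pathway did not change detectably. Slc2a1, the glucose transporter GLUT1, measured 1340.2, 1092 and 686 CPM in WT, 1175, 1334 and 1119 CPM in OVE853 and 794, 1339.8, 915 and 1127 CPM in OVE918. Its groups overlapped, with WT replicate 3 the lowest of all 10 libraries (log2 fold change 0.22 ± 0.24, FDR 0.546 in OVE853; log2 fold change 0.01 ± 0.23, FDR 0.989 in OVE918). The hexokinases Hk1 and Hk2, which trap glucose as glucose 6-phosphate, had log2 fold changes of opposite sign and passed in neither line. Hk1 stood at 55.7, 69.1 and 132 CPM in WT and between 49.2 and 61.8 CPM in the transgenic lines, and Hk2 at 98.0, 72.8 and 37.5 CPM in WT and between 71.1 and 124 CPM in the lines. WT replicate 3 was the highest library for Hk1 and the lowest for Hk2. Without that library the log2 fold change of Hk1 was −0.17 (FDR 0.397) in OVE853 and −0.16 (FDR 0.407) in OVE918. That of Hk2 was 0.23 (FDR 0.532) in OVE853 and 0.20 (FDR 0.592) in OVE918.

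Of the 8 members of the middle steps, Aldoc was reduced in both lines, and Pfkm fell and Tpi1 rose in OVE918. Aldoc, aldolase C, measured 1689.6, 2003 and 2252 CPM in WT, 1197, 1137 and 1148 CPM in OVE853 and 1479, 1394, 1425 and 1604 CPM in OVE918. Each group was separate from the next, with WT highest and OVE853 lowest. The fall was 1.71-fold in OVE853 (log2 fold change −0.77 ± 0.12, FDR 0.0024), and 1.34-fold in OVE918 (log2 fold change −0.43 ± 0.11, FDR 0.0249), where it passed in 5 of 10 fits without 1 library, with FDR values of up to 0.0752. Without WT replicate 3 the OVE918 value was −0.32 (FDR 0.0727). Aldoa, aldolase A, was counted at only 10.2 to 16.8 CPM, but 43.1% of its annotated exon bases are shared with another gene on the same strand and the processed copy Aldoart1 held 27.7% to 39.5% as many counts, so that its level is uncertain.

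Pfkm, the muscle isozyme of phosphofructokinase, measured 45.1, 48.7 and 105 CPM in WT, 41.4, 41.6 and 39.7 CPM in OVE853 and 36.8, 31.6, 31.8 and 33.2 CPM in OVE918. Both lines lay below all WT libraries, but WT replicate 3 was 2.24 times the mean of the other WT libraries. The change was log2 fold change −0.99 ± 0.24, FDR 0.0177 in OVE918 and log2 fold change −0.70 ± 0.26, FDR 0.0944 in OVE853. Without WT replicate 3 it was smaller in OVE918 (log2 fold change −0.49 ± 0.09, FDR 0.00349), and 20.6% of the exon bases of Pfkm are shared with another gene on the same strand. Tpi1, triose phosphate isomerase, rose 1.25-fold in OVE918 (log2 fold change 0.33 ± 0.10, FDR 0.042), from 421, 438 and 492 CPM in WT to 562, 522, 566 and 610.4 CPM, with OVE853 at 586, 533 and 509.9 CPM (FDR 0.103). This rise passed in 2 of 10 fits without 1 library, with an FDR of up to 0.122 without WT replicate 2. Gpi1, Pfkl, Pfkp and Pfkfb3, whose products isomerise glucose 6-phosphate, phosphorylate fructose 6-phosphate (Pfkl, Pfkp) and make the activator of phosphofructokinase, passed in neither line, with log2 fold changes of 0.01 to 0.60. For Pfkp, WT replicate 3 was 1.97 times the mean of the other WT libraries. Without that library the log2 fold change of Pfkp was 0.89 (FDR 0.111) in OVE853 and 0.85 (FDR 0.0962) in OVE918.

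Among the 6 members of the lower steps, Pgam1 passed in both lines and Pgk1 in OVE918. Pgam1, phosphoglycerate mutase, measured 181, 171 and 170.4 CPM in WT, 242, 224 and 228 CPM in OVE853 and 212, 242, 248 and 235 CPM in OVE918. All transgenic libraries were above WT, by 1.33-fold in OVE853 (log2 fold change 0.41 ± 0.09, FDR 0.0127) and 1.35-fold in OVE918 (log2 fold change 0.43 ± 0.08, FDR 0.00488). The OVE853 value had an FDR of 0.0685 without OVE853 replicate 1 and 0.0506 without OVE853 replicate 3. Pgk1, phosphoglycerate kinase, which makes the first ATP gain of the pathway, measured 586, 459 and 395 CPM in WT, 627, 684 and 611 CPM in OVE853 and 722, 653, 767 and 805 CPM in OVE918. All transgenic libraries lay above all WT libraries, and the rise was 1.54-fold in OVE918 (log2 fold change 0.62 ± 0.14, FDR 0.00971) and 1.33-fold but short of the threshold in OVE853 (FDR 0.0744).

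Gapdh, glyceraldehyde phosphate dehydrogenase, often used as a reference gene, measured 2393, 2096 and 2031 CPM in WT, 1991, 1909 and 1902 CPM in OVE853 and 2442, 2219, 2332 and 2768 CPM in OVE918. OVE853 lay below all WT libraries and OVE918 overlapped them, and neither difference passed (log2 fold change −0.17 ± 0.12, FDR 0.34 in OVE853; log2 fold change 0.17 ± 0.11, FDR 0.335 in OVE918). Eno1, the ubiquitous enolase, ranged from 1234 to 1297 CPM in the lines and from 1373 to 1553 CPM in WT without passing (FDR 0.243 and 0.134), and a near-identical copy, Eno1b, held 19.4% to 20.8% as many counts. Pkm, pyruvate kinase, stood between 1707 and 2418 CPM in all libraries and passed in neither line, and 23.5% of its exon bases are shared with another gene on the same strand.

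Eno2, the neuronal enolase, depended wholly on which WT libraries were used. It measured 45.3, 38.7 and 209 CPM in WT, 54.3, 58.3 and 43.2 CPM in OVE853 and 96.7, 78.9, 82.2 and 105 CPM in OVE918. WT replicate 3 was 4.98 times the mean of the other WT libraries, beside ratios of 9.44 for the neuronal gene Snap25 and 3.20 for the glial gene Glul, and their part in it was not tested. With all libraries there was no call (log2 fold change −0.11 ± 0.53, FDR 0.908 in OVE918; log2 fold change −0.91 ± 0.57, FDR 0.285 in OVE853), and without WT replicate 3 Eno2 was called higher in OVE918 (log2 fold change 1.11 ± 0.16, FDR 0.00074), but did not pass in OVE853 (log2 fold change 0.30 ± 0.16, FDR 0.266). This gene was singled out after its values were seen.

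**Figure D3:**
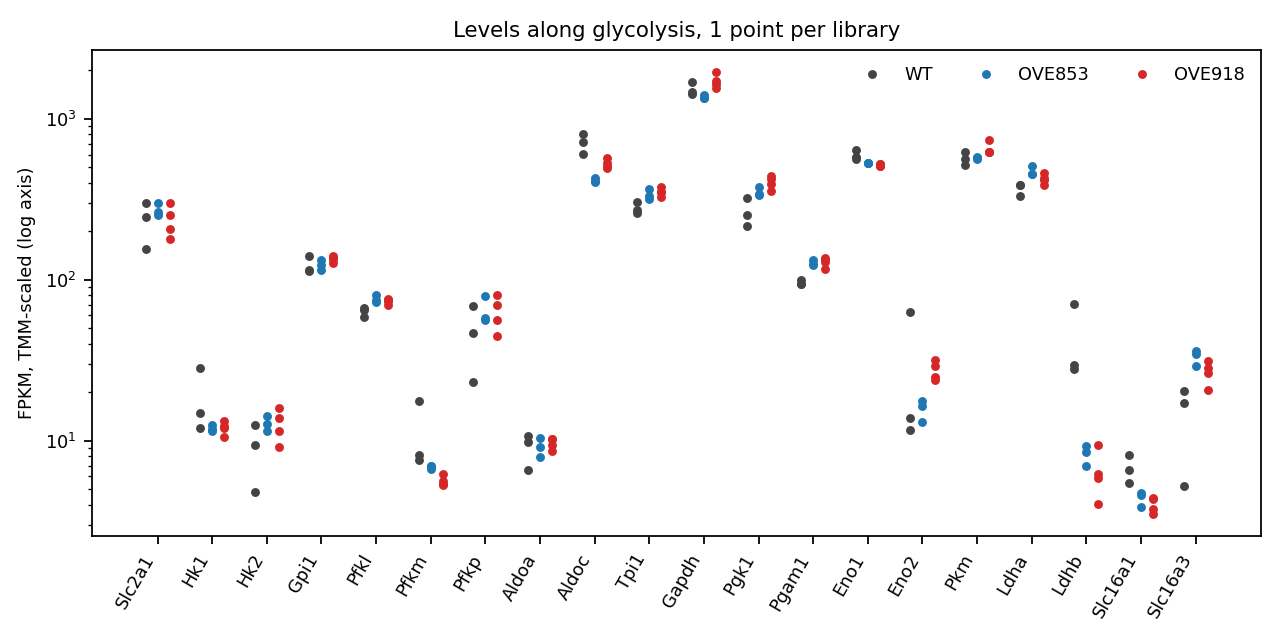
Level per length (FPKM, TMM-scaled, log axis) of the members in the order of the pathway from glucose uptake to lactate export, 1 point per library for WT (grey), OVE853 (blue) and OVE918 (red). Gapdh is highest and Slc16a1 among the lowest, and the separation of groups is widest for Ldhb, where WT libraries lie at 28.1, 29.7 and 70.7 FPKM and all transgenic libraries under 10 FPKM.

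At the end of the pathway, Ldhb changed and Ldha did not pass. Ldhb, the subunit that favours the oxidation of lactate to pyruvate, fell in both lines, to a level 5.22-fold lower in OVE853 and 6.72-fold lower in OVE918. It measured 42.9, 45.5 and 108 CPM in WT, 10.6, 14.1 and 13.0 CPM in OVE853 and 14.5, 6.15, 9.44 and 9.00 CPM in OVE918. Every transgenic library was far below every WT library, and WT replicate 3 was 2.45 times the mean of the other WT libraries. A copy of the gene, Ldhb-ps, held 10.5% to 15.2% as many counts. By edgeR the change was log2 fold change −2.38 ± 0.40, FDR 0.00427 in OVE853 and log2 fold change −2.75 ± 0.36, FDR 0.000704 in OVE918. Without WT replicate 3 it was still called in OVE853 (log2 fold change −1.82 ± 0.26, FDR 0.00128) and in OVE918 (log2 fold change −2.18 ± 0.24, FDR 0.00016).

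Markers of 3 other cell types moved with Ldhb, first those of the non-pigmented ciliary epithelium, which lies beside the lens. The 3 of 4 listed genes that were found by symbol summed to 134 to 204 CPM in WT, 23.0 to 37.8 CPM in OVE853 and 8.19 to 15.1 CPM in OVE918. The 6 Müller glia markers were also lower, at 3524 to 5304 CPM in WT, 2060 to 2403 CPM in OVE853 and 2448 to 2932 CPM in OVE918. The 5 cornea markers summed to 237, 938 and 1619 CPM in WT, 62.7 to 92.9 CPM in OVE853 and 26.6 to 81.8 CPM in OVE918, with 1 of them at 0 in each WT library and 2 or 3 in each transgenic library. For all 3 lists the lines lay below every WT library, and the part of these cells in the fall of Ldhb, Aldoc and Slc16a1 was not tested. The study had itself reported the 3 ciliary genes found, Best2, Slc6a13 and Wfdc1, as reduced in both lines from these libraries. It also reported Rlbp1 and Slc1a3 of the Müller glia list and Aldh3a1 of the cornea list as reduced. The lower sums of these lists are therefore not independent evidence. The study places Slc1a3 and Slc6a13 in sets of reduced genes, most of which it found elevated in normal lens epithelium. These sums may thus not measure glia or ciliary cells alone. Ldha, the subunit that favours lactate formation and a HIF target, measured 631, 625 and 537 CPM in WT, 824, 741 and 732 CPM in OVE853 and 629, 680.5, 696 and 749.7 CPM in OVE918. The OVE853 libraries were above all WT libraries but just missed the threshold (log2 fold change 0.36 ± 0.11, FDR 0.0501), and OVE918 overlapped WT (log2 fold change 0.20 ± 0.10, FDR 0.196).

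The kinases that switch off pyruvate dehydrogenase, and with it the entry of pyruvate into the citric acid cycle, changed in different directions. Pdk1 measured 64.8, 52.1 and 37.8 CPM in WT, 87.0, 93.8 and 80.3 CPM in OVE853 and 70.5, 77.6, 85.1 and 68.9 CPM in OVE918. Its transgenic libraries were all above WT, with WT replicate 3 lowest (log2 fold change 0.76 ± 0.17, FDR 0.0138 in OVE853; log2 fold change 0.55 ± 0.16, FDR 0.0336 in OVE918). In OVE918 it passed in 3 of 10 fits without 1 library, with an FDR of up to 0.0871 (without OVE918 replicate 3), and without WT replicate 3 its log2 fold change was 0.37 (FDR 0.0714). In OVE853 the FDR was 0.0546 without OVE853 replicate 1 and 0.055 without OVE853 replicate 2.

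Pdk2 measured 153, 155 and 169 CPM in WT, 128, 127 and 142 CPM in OVE853 and 105, 105, 102 and 79.4 CPM in OVE918. The groups were separate, in the order WT, OVE853, OVE918, and the fall passed in OVE918 (log2 fold change −0.70 ± 0.11, FDR 0.00108) but not in OVE853 (log2 fold change −0.27 ± 0.12, FDR 0.133). Pdk3 ranged from 24.0 to 32.3 CPM in WT and from 25.6 to 40.5 CPM in the lines and did not pass.

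Lactate leaves or enters cells through monocarboxylate transporters, of which Slc16a1 (MCT1) has the higher affinity and Slc16a3 (MCT4) serves export from glycolytic cells. Slc16a1 measured 37.7, 25.0 and 30.2 CPM in WT, 21.1, 21.8 and 17.8 CPM in OVE853 and 17.3, 16.2, 20.1 and 20.3 CPM in OVE918. All transgenic libraries were lower than all WT libraries. The fall passed in OVE853 (log2 fold change −0.61 ± 0.16, FDR 0.0245) and in OVE918 (log2 fold change −0.75 ± 0.14, FDR 0.00453), but in OVE853 the FDR was 0.0713, 0.0548 and 0.106 without replicates 1, 2 and 3 of that line.

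Slc16a3 measured 98.6, 82.4 and 25.2 CPM in WT, 167, 175 and 141 CPM in OVE853 and 100.4, 137, 127 and 150.5 CPM in OVE918. All transgenic libraries were higher than all WT libraries, yet neither difference passed with edgeR (log2 fold change 1.23 ± 0.40, FDR 0.0649 in OVE853; log2 fold change 0.91 ± 0.38, FDR 0.126 in OVE918). With DESeq2 the adjusted p was 0.00586 in OVE853 and 0.032 in OVE918. WT replicate 3 was the lowest of all libraries, and the mean of the other WT libraries was 3.59 times its level. Without it Slc16a3 was elevated in OVE853 (log2 fold change 0.83 ± 0.17, FDR 0.0102) and just missed the threshold in OVE918 (log2 fold change 0.51 ± 0.16, FDR 0.0589), and without WT replicate 1 it was called in OVE853 (log2 fold change 1.58, FDR 0.0315).

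**Figure D4:**
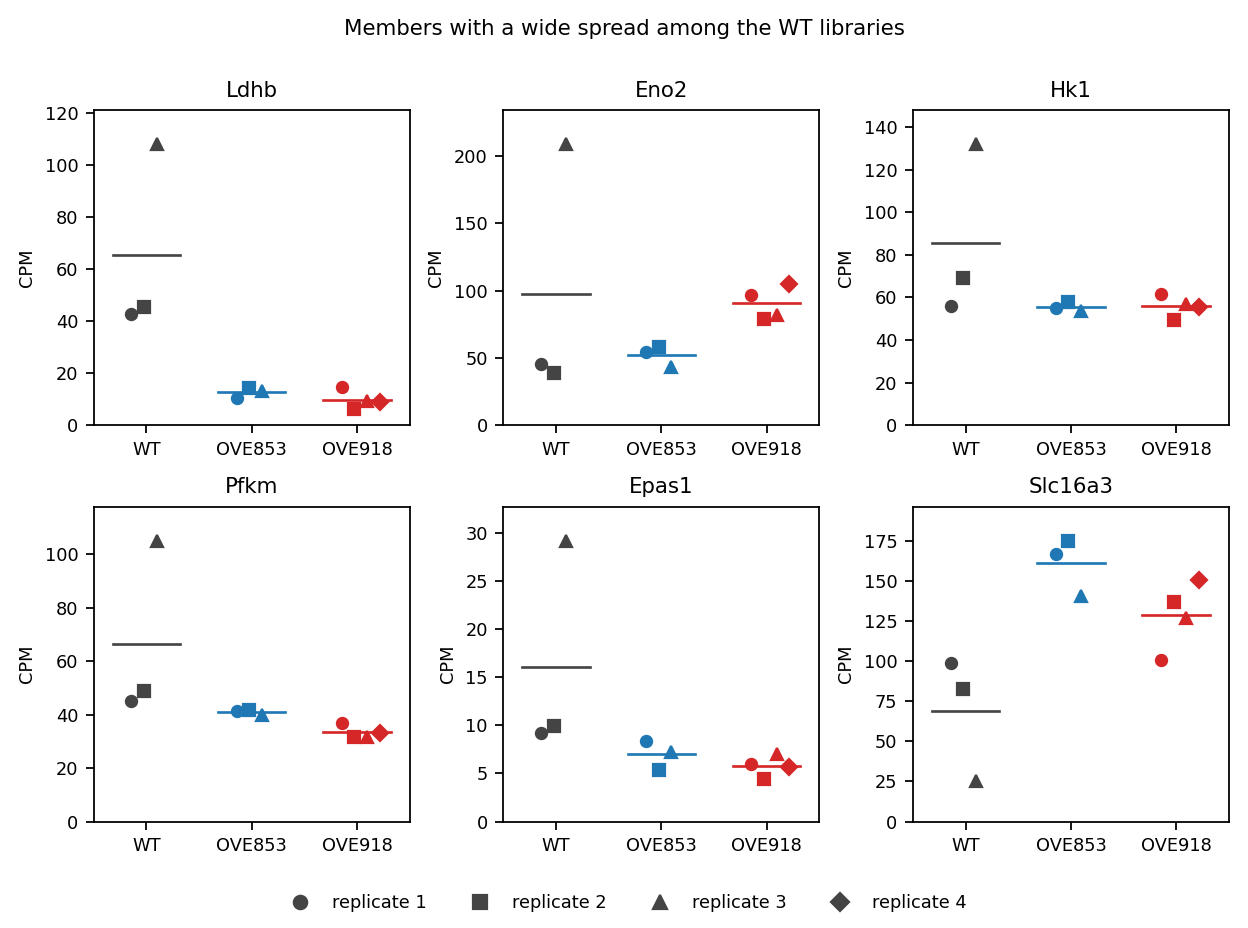
CPM (linear axes from 0) of 6 members with a wide spread among the WT libraries, chosen after their values were seen, 1 point per library with the shape giving the replicate number and a line at the group mean. WT replicate 3 (grey triangle) is the highest WT library for Ldhb, Eno2, Hk1, Pfkm and Epas1 and the lowest for Slc16a3, at 25.2 CPM.

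Ratios of related genes within a library are free of the scaling between libraries, and are given per length on a log2 scale as a description, with no test. The ratio of Ldha to Ldhb was 3.80, 3.70 and 2.23 in the WT libraries, 6.20, 5.63 and 5.73 in OVE853 and 5.36, 6.71, 6.12 and 6.30 in OVE918. The groups did not overlap, and from the group means Ldha stood 9.45 times above Ldhb in WT, 57.8 times in OVE853 and 69.5 times in OVE918. The ratio of Slc16a3 to Slc16a1 was 1.32, 1.65 and −0.33 in WT, 2.91, 2.94 and 2.91 in OVE853 and 2.47, 3.01, 2.59 and 2.82 in OVE918. WT replicate 3 was the only library in which Slc16a1 exceeded Slc16a3, and the other WT libraries were still below every transgenic library.

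The ratio of Hk2 to Hk1 was 0.06, −0.68 and −2.57 in WT and lay between −0.55 and 0.58 in the transgenic libraries, which overlap WT replicate 1. The ratio of Pfkm to Pfkl was −3.15, −2.99 and −1.72 in WT and between −3.81 and −3.37 in the lines, so that the liver isozyme exceeded the muscle isozyme in every library. The ratio of Eno2 to Eno1 was −5.36, −5.63 and −3.33 in WT, −5.00, −4.91 and −5.34 in OVE853 and −4.12, −4.40, −4.40 and −4.03 in OVE918. OVE918 was above OVE853 in each library, and WT replicate 3 was above both. The ratio of Epas1 to Hif1a was −5.81, −5.56 and −3.62 in WT and between −6.91 and −5.85 in the lines, all below the WT libraries.

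**Figure D5:**
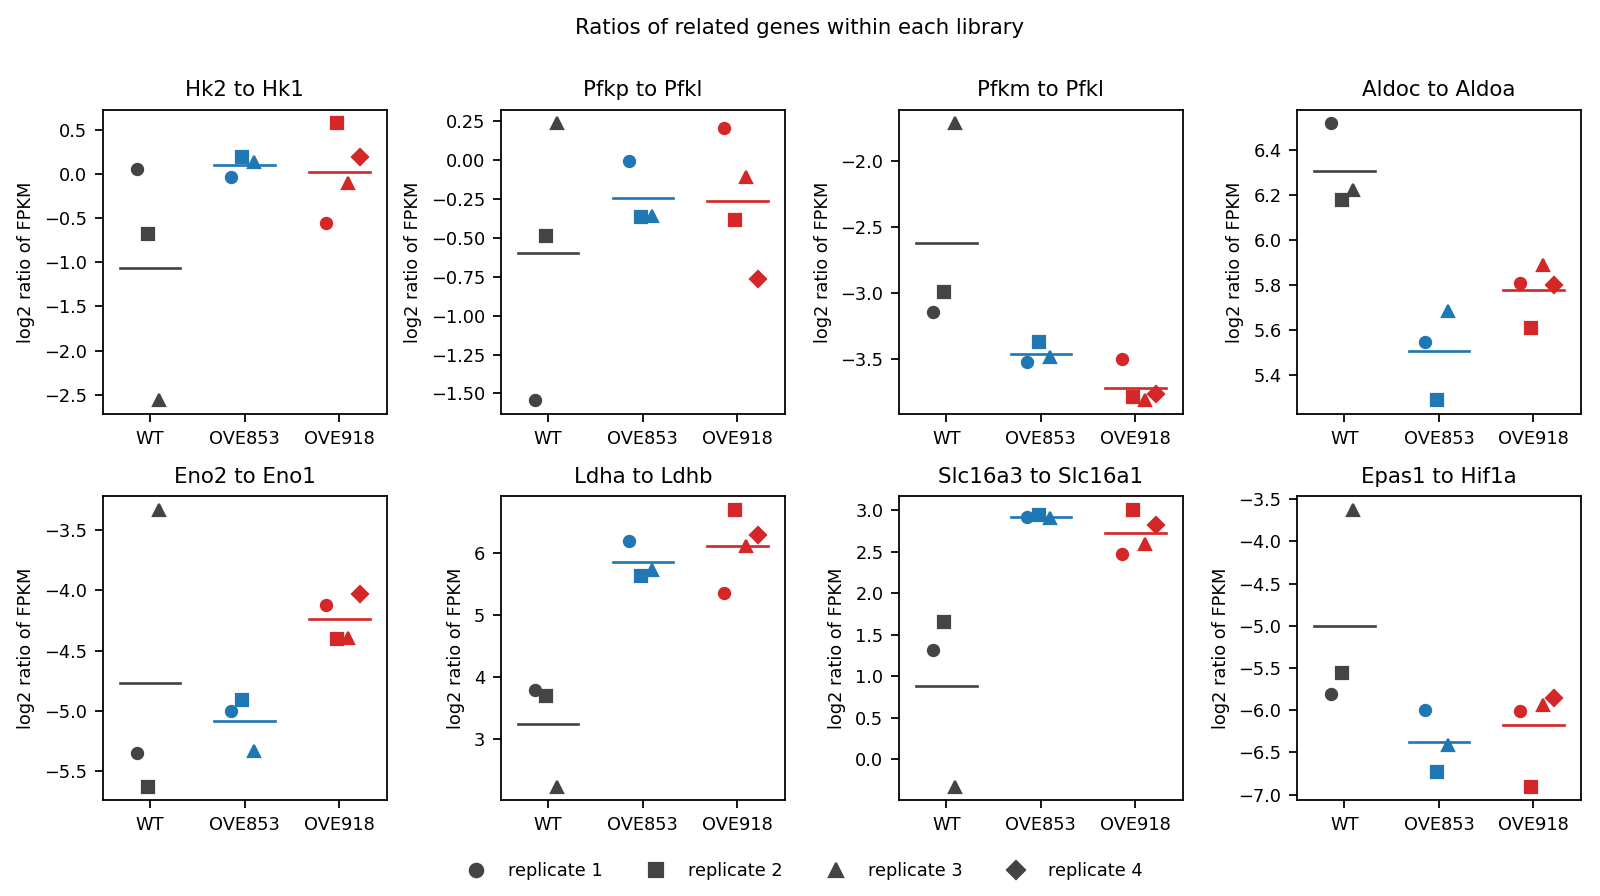
Log2 ratio of the FPKM of related members within each library, 1 point per library with the shape giving the replicate number and a line at the group mean. Ldha to Ldhb and Slc16a3 to Slc16a1 are higher in all transgenic libraries than in all WT libraries. Aldoc to Aldoa, Pfkm to Pfkl and Epas1 to Hif1a are lower in all of them. The level of Aldoa is uncertain, and Epas1 was low throughout. WT replicate 3 stands apart from the other WT libraries in several panels.

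With edgeR's quasi-likelihood test, 0 of 33 members passed an FDR of 0.05 in OVE918 against OVE853, where 1.32% of all genes tested passed and 0.487% were called. At an unadjusted p under 0.05 there were 8 members, and DESeq2 passed 4 members at an FDR of 0.05. Over all genes DESeq2 called 35 higher and 71 lower, beside 8 and 46 with edgeR. The share of all genes at that unadjusted p is not given here, so the 8 are no result about the members. The difference in Car9 was −0.53, 95% interval −0.86 to −0.21 on the log2 scale (edgeR, FDR 0.0873), with OVE853 higher. Without WT replicate 3, a library of neither line, its FDR was 0.046. The difference in Pdk2 was −0.43, 95% interval −0.67 to −0.20 (FDR 0.0756), with OVE918 lower. Those of Bnip3 (0.37, 95% interval 0.05 to 0.68) and Egln1 (0.22, 95% interval 0.02 to 0.43) were higher in OVE918, and that of Egln3 (−0.40, 95% interval −0.72 to −0.07) was higher in OVE853, with FDRs of 0.159 to 0.19. The rest of the 8 were Aldoc (0.35, 95% interval 0.09 to 0.60) and Gapdh (0.34, 95% interval 0.09 to 0.58), both higher in OVE918, and Hif1a (−0.45, 95% interval −0.83 to −0.07), higher in OVE853. All 8 were picked by their unadjusted p, so their 95% intervals exclude 0 by that choice. Tgfb1 differed by 1.15 ± 0.11 (FDR 0.00388), with OVE918 higher.

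Another 69 genes of the same pathways, in 4 lists, give the setting of the members, and 48 of them were tested. In OVE853, 13 were elevated, 4 were reduced and 31 did not pass, and in OVE918 the counts were 11, 3 and 34, with 0 passing between the lines. The background shares were those given for the members. Of 21 tested genes among 23 other hypoxia-induced genes, 10 were elevated and 1 was reduced in OVE853, and 8 were elevated and 1 was reduced in OVE918. Their median log2 fold change was 0.51 and 0.39.

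Ero1a, an oxidase of the endoplasmic reticulum that forms disulfide bonds and a HIF target, was the only gene of these lists called higher, in both lines. It measured 38.7, 33.3 and 21.9 CPM in WT, 75.2, 91.6 and 70.6 CPM in OVE853 and 51.5, 83.2, 73.0 and 62.9 CPM in OVE918. All transgenic libraries were above all WT libraries (log2 fold change 1.34 ± 0.22, FDR 0.00307 in OVE853; log2 fold change 1.11 ± 0.21, FDR 0.00393 in OVE918), and the OVE918 value was 0.91 without WT replicate 3, under the 2-fold limit. The study had itself picked this gene from these libraries, so that its rise is not independent evidence. It listed Ero1a among elevated genes of endoplasmic reticulum stress and of the extracellular matrix. Whether the rise belongs to a hypoxia response was not tested. Pcx, pyruvate carboxylase, which feeds pyruvate into the citric acid cycle as oxaloacetate, was called lower in OVE918. Its level was 22.5, 21.5 and 32.2 CPM in WT, 12.1, 14.8 and 15.0 CPM in OVE853 and 13.0, 9.76, 12.9 and 10.5 CPM in OVE918 (log2 fold change −0.86 ± 0.18, FDR 0.00945 in OVE853; log2 fold change −1.14 ± 0.16, FDR 0.000752 in OVE918), and the OVE918 value was −0.93 without WT replicate 3, also under the limit.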

How the data were processed

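RNA of pooled lens epithelial explants was sequenced as paired reads in 10 libraries. Per the labels and the study's methods, adapters were removed with Cutadapt 5.2, alignment to GRCm39 used STAR 2.7.11b, and featureCounts 2.0.8 assigned reads to genes in reverse-stranded mode. The authors deposited whole-number counts of 50763 genes without normalization. How reads with several placements were treated is not given in the sources used here, so genes with near-identical copies are uncertain.

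These counts entered edgeR 4.0.16 under R 4.3.3 (TMM factors, robust quasi-likelihood fit of the 3 groups in all 10 libraries, Benjamini-Hochberg adjustment over all genes tested within a comparison); the submitters' processing notes name edgeR 4.6.3. Genes with at least 2 FPKM in 5 of 10 libraries were tested, with exon lengths from the GENCODE vM39 annotation matched by symbol (7489 genes had none). CPM and FPKM are on the TMM scale. Replicates are pools of mice, and precision is limited by the spread between pools and by the total counts per library. The standard error is the log2 fold change divided by the root of its F statistic. The 95% intervals between the lines use the t distribution.

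The members were the listed symbols. The members and lists were chosen with earlier results of these data known. Members past an FDR of 0.05 in a comparison were given with every library's value, as were Hif1a, Slc2a1, Gapdh, Ldha, Ldhb and Car9; the rest by ranges and counts, except that Slc16a3, Eno2, Epas1, Adm, Hk1 and Hk2 were given by library after their values were seen; of the other pathway genes those called. Marker lists were used for lens epithelium, retinal neurons, Müller glia, fiber cells, macrophages, cornea, endothelium and non-pigmented ciliary epithelium, and also for photoreceptors (14.7 to 88.2 CPM over all libraries), pigmented epithelium (37.3 to 163 CPM), erythrocytes (7.67 to 74.3 CPM) and immediate early genes (214 to 3365 CPM), in which the groups overlapped. Alternatives were DESeq2 1.42.0, other size factors and filters, fits of only the groups compared, a replicate block and leaving out each library. 1 result of the other pathway lists is not reported here. The scripts were tested on simulated data. Replicates differed beyond counting noise, with a chi-square per degree of freedom of 12.8 to 129 in 12 within-group comparisons. Same-numbered libraries did not deviate together (9 pairs, 0 with a correlation over 0.1), so the numbers do not pair them.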

Additional observations from a re-analysis of the deposited data

Results flagged for a closer look

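The 4 OVE918 libraries were searched for a member in which the highest or lowest library lay far from the rest by Dixon's criterion, which chance meets in about 1 of 20 groups. Among the 35 members it was met by 2, both in OVE918 replicate 4. Pkm was 2418 CPM in that library, against 2049, 2055 and 2064 CPM in the others, a gap of 0.960 of the range. Pdk2 was 79.4 CPM, against 102, 105 and 105 CPM, a gap of 0.868 of the range.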

How the results depend on the processing

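Among OVE853 members, 9 passed an FDR of 0.05 and 17 did with DESeq2. DESeq2 also called more of all genes in OVE853, 302 higher and 246 lower, beside 279 and 212 in the main fit. The share of all genes passing is given only for the main fit and without WT replicate 3. In the latter, 10 members passed in OVE853 and 11 in OVE918, beside 10.8% and 14.6% of all genes. The counts from the other fits are therefore no result about the members. Leaving out 1 library gave 5 (without OVE853 replicate 1) to 15 (without WT replicate 1) passing and 2 to 4 called, the 4 without WT replicate 1 adding Slc16a3 and Egln3. Car9, Ldhb, Egln1, Egln3 and Aldoc passed in OVE853 in every fit. In OVE918, 13 members passed, and 8 of them in every fit, Pfkm failing with the replicate block. Of the other pathway genes, those passing numbered 7 (without OVE853 replicate 1) to 21 in OVE853, against 17, and 9 (without WT replicate 2) to 18 in OVE918, against 14, with 23 by DESeq2. Between the lines, DESeq2 passed 4 members and 5 other pathway genes, a fit of only the groups compared passed 1 member, and leaving out 1 library gave 0 to 3 members and 0 to 2 pathway genes, the highest without WT replicate 3. The causes were not tested.

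The numbers do not pair the libraries. With a replicate block, 9 members passed in OVE853 and 9 in OVE918, of which 2 and 2 were called, and Bnip3 in OVE918 fell under the 2-fold limit. The block passed 16 and 12 other pathway genes. Values near 0 changed sign: Hif1a in OVE918 was 0.00126 with the block, 0.0127 without WT replicate 1 and also above 0 without OVE918 replicate 4 (range −0.24 to 0.0127). Slc2a1 in OVE918 was −0.0225 with the block and −0.22 without WT replicate 3, −0.14 without OVE918 replicate 2 and −0.03 without OVE918 replicate 4 (range −0.22 to 0.23). Slc2a1 in OVE853 ranged from −0.00969, without WT replicate 3, to 0.44.

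Over all genes, 279 were called higher and 212 lower in OVE853 and 286 and 334 in OVE918. With the filterByExpr filter these were 572 and 672, and 623 and 964, and with no filter 517 and 544, and 603 and 945. Between the lines 8 were called higher and 46 lower, beside 35 and 71 with DESeq2, 29 and 68 in a fit of only the groups compared, and 3 and 25 with the block. With filterByExpr Epas1 was also called, lower in OVE918, but without WT replicate 3, an alternative chosen after seeing the data, its log2 fold change was −0.73 (edgeR, FDR 0.0404), under the 2-fold limit. Adm in OVE918 passed in that same fit, with a log2 fold change of 3.06 (FDR 0.0167) beside 1.70 (FDR 0.105) with filterByExpr and all libraries.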
